A study of Mus musculus with 18 samples.

Results

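Retinoic acid is made, carried, sensed and destroyed by a small set of genes, and 9 of them were followed here in mouse embryonic stem cells. They are the retinaldehyde dehydrogenases Aldh1a1, Aldh1a2 and Aldh1a3, the carriers Crabp1 and Crabp2, the receptors Rara, Rarb and Rarg, and the degrading enzyme Cyp26a1. The genes were chosen by symbol, and earlier results of these data were known when they were chosen. Every array probe whose RefSeq transcript maps to one of the symbols was taken. Of the 9 genes, 8 had at least 1 probe, with 12 probes in all, and 7 were bright enough to test, among 16022 genes tested on the array. Crabp2 had no probe matched in this way and was not analysed here. Rarb had 3 probes, none of which passed the brightness filter.

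In this pathway retinol is oxidised to retinaldehyde by retinol dehydrogenases, and retinaldehyde is oxidised to retinoic acid by the Aldh1a enzymes. Retinoic acid enters the nucleus, where it binds RAR proteins that sit on DNA as heterodimers with RXR proteins, often at direct repeats of a hexamer. Cyp26 enzymes hydroxylate retinoic acid and so remove it, and Cyp26a1 and Rarb are textbook genes that retinoic acid itself induces through such repeats. In embryonic stem cells, retinoic acid is best known as an agent that drives differentiation, while the ERK kinases that lie downstream of Raf also promote exit from self-renewal.

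The study asked how ERK signalling changes transcription in embryonic stem cells, and whether the transcription factor Esrrb is needed. All 18 samples were 129SV embryonic stem cells labelled as an Esrrb knockout that expresses Raf-ErT2, a Raf kinase fused to a tamoxifen-responsive receptor domain, so that 4-hydroxytamoxifen (4OHT) switches on Raf. The 9 samples labelled Rescue carry an Esrrb transgene, and the 9 labelled KO carry an empty vector. Cells of every group had grown in serum with LIF and 2 uM Chir99021, a GSK3 inhibitor, and then for 24 h in serum with LIF and 250 nM PD173074, an FGF receptor inhibitor. Groups are named by their titles. The title 0h means untreated, 8h means 250 nM 4OHT for 8 h, and 8h2h means that this was followed by 2 h with a Mek inhibitor. No group had the further 2 h without the inhibitor, so from 8h to 8h2h effects of time and inhibitor cannot be told apart. Each of the 6 groups has 3 arrays, lettered a, b and c, and each letter is 1 slide that holds all 6 groups. The labels do not state that a, b and c were separate cultures, so p-values measure only the spread between these arrays, which may be technical. A group's position on the slide was the same for a, b and c, and the effects of position and of group cannot be told apart.

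Titles and source names contradict each other on 12 arrays, since the Mek inhibitor is named in the source of those titled 8h and missing from the source of those titled 8h2h. Titles were followed. Dusp6, Spry2, Spry4 and Egr1, 4 genes that ERK signalling induces, were examined in slide-matched pairs, and 8h2h was below 8h in 24 of 24 such comparisons. Esrrb also stood against its label, with a log2 scaled signal of 5.03 ± 0.27 (SD, n = 3) in KO 0h and 4.40 ± 0.41 in Rescue 0h, 3.75 ± 0.31 in KO 8h and 1.91 ± 0.21 in Rescue 8h, and 3.85 ± 0.54 in KO 8h2h and 1.62 ± 0.13 in Rescue 8h2h. It is not known whether the probe reads the part that was deleted, so this level checks nothing with certainty, and "Rescue" and "KO" below mean arrays that carry those labels. All 12 pluripotency markers examined were above background on all 18 arrays, but their levels differed by time and line. From 0h to 8h the mean of Nanog went from 2.12 to −2.61 in Rescue and from 3.63 to 0.04 in KO. That of Tfcp2l1 went from 1.11 to −1.25 and from 3.13 to 1.54, and that of Zfp42 from 5.22 to 3.67 and from 6.18 to 5.74. Others were higher at 8h, such as Utf1 (5.24 and 6.03 in Rescue, 5.27 and 6.21 in KO) and Dppa4 (2.41 and 3.40, 2.61 and 3.71). Markers of other cell types moved too. The 9 trophoblast markers with a probe summed to log2 scaled signals of 7.44 to 7.64 in Rescue 0h against 4.03 to 4.65 in KO 0h, and to 8.07 to 8.13 in Rescue 8h against 5.51 to 5.89 in KO 8h. Krt18 and Krt8 carried the sum in Rescue, with 0h means of 6.66 and 5.63 against 2.98 and 2.18 in KO. Eomes went the other way, at −3.28 in Rescue 0h and −2.97 in KO 0h, and at −2.04 and −1.04 at 8h. Cdx2 was at 0.79 in both lines at 8h. The 10 fibroblast markers summed to 1.22 to 1.38 in Rescue 0h and 2.73 to 2.96 in Rescue 8h, and to 1.23 to 1.51 in KO 0h and 3.91 to 4.42 in KO 8h. Thy1 carried this sum, with means of 0.81 in Rescue 0h and 2.74 in Rescue 8h, and of 1.07 in KO 0h and 4.17 in KO 8h, while Fbln2 was lower at 8h (−2.69 and −3.82 in Rescue, −2.69 and −4.22 in KO), as was Pdgfrb (−3.23 and −3.80, −2.98 and −3.57), and the collagen gene Col1a1 was at −3.15 and −3.85 in Rescue. The 10 mesoderm markers summed to −1.25 to −0.55 in Rescue 0h and 0.92 to 1.34 in Rescue 8h, and to −0.77 to −0.67 in KO 0h and 1.30 to 1.94 in KO 8h, with the largest step in Kdr (means of −4.52 and 0.27 in Rescue and −3.14 and 1.05 in KO). The 10 primitive endoderm markers summed to 3.65 to 3.98 in Rescue 0h against 4.58 to 5.01 in KO 0h, to 3.67 to 3.96 against 4.33 to 4.80 at 8h, and to 3.82 to 4.11 against 4.31 to 4.96 at 8h2h. At 0h Lama1 was higher in KO (means of 4.76 and 3.59), and the other 9 were lower in KO by mean. Of these markers 9 to 10 of 10 were above background in Rescue 0h and 7 to 8 in KO 0h. On single arrays, 9 of 9 trophoblast markers were above background in Rescue 0h and 6 of 9 in KO 0h, where Cdx2, Hand1 and Plac1 were not. Of the fibroblast markers 6 to 8 of 10 were above background in Rescue 0h and 7 to 9 in Rescue 8h, and 4 to 6 in both KO 0h and KO 8h, with Lum below background in every group. Of the mesoderm markers 5 to 6 of 10 were above background in Rescue 0h, 7 in Rescue 8h, 3 to 4 in KO 0h and 5 to 6 in KO 8h, with Mixl1 below background in every group. Their part in the results on the retinoic acid genes was not tested, and in bulk RNA fewer cells of a type and less RNA per cell cannot be told apart. Array b of KO 8h2h had 88.6% of its probes above background, against 46.6% to 63.8% on the other 17 arrays.

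Levels are given as log2 scaled signal, which is the log2 of a probe's processed intensity minus the log2 of the 75th percentile of all non-control spots on that array. A value of 0 is the brightness of that percentile, and 1 unit is a doubling. Probes differ in how well they bind, so levels are compared between groups for 1 gene and not between genes. A group is called below background where none of its 3 arrays has the probe marked well above background in the scanner file. A gene was called changed at an adjusted p under 0.05 (limma across all genes, Benjamini-Hochberg, two-sided).

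Promoter sequence is shown first, because the receptors among these genes are known to bind direct repeats of a hexamer. RefSeq promoter windows (GRCm38.p6, 250 bases before to 50 after a transcript start) were available for 7 of the 9 genes, as 12 windows, on chromosome 19 for Aldh1a1 and Cyp26a1, 9 for Aldh1a2 and Crabp1, 11 for Rara, 14 for Rarb and 15 for Rarg. The array files name another build, mm9, and no coordinates were taken from them. They were searched on both strands for direct repeats of the hexamer NGNTCA, with A or G in the first place and G or T in the third, with 5 bases between. Such a repeat was found in 1 window each of Cyp26a1 and Rarb, and in 0.0974% of all 32851 promoter windows. It is shown with the hexamers in capitals, read 5′ to 3′ along the strand of the repeat, at chr19:37697769-37697798 (minus strand) for Cyp26a1 and at chr14:16575506-16575535 (minus strand) for Rarb.

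Cyp26a1: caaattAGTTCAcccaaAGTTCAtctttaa

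Rarb: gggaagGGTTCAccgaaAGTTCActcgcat

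The 2 repeats of 17 bases matched at 15 positions and differed at 2, of which 1 lay in a hexamer. The repeat lies from 32 to 16 bases before the transcript start of that window in Cyp26a1 and from 53 to 37 bases before it in Rarb, and other transcripts can start elsewhere. A repeat with 2 bases between, which 0.268% of all windows hold, was in none of the 12 windows, nor was a repeat with 1 base between (0.222% of all windows). Single hexamers were in 6 of the 12 windows and in 43.7% of all windows. The AP-1 motif TGANTCA, bound by Fos and Jun proteins that ERK signalling induces, is in 7.81% of all windows and was in 1 of the 12, a window of Aldh1a1 at chr19:20492520-20492549 (plus strand), shown with the motif in capitals.

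Aldh1a1: gtcatcTGACTCAgtggggaaactggagaa

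The ETS motif CCGGAA (14.9% of all windows) and the Esrrb-type motif TCAAGGTCA (0.423%) were in none of the 12. The hexamer in its form AGGTCA lies within the Esrrb-type motif. A match is a description of letters and does not show binding.

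Cyp26a1, which destroys retinoic acid, rose at 8h and fell again at 8h2h in both lines. Its signal in Rescue was −2.81, −3.06 and −2.92 on arrays a, b and c at 0h, 3.03, 2.96 and 2.54 at 8h, and −0.59, −0.42 and −0.67 at 8h2h. In KO it was −5.50, −3.72 and −4.72 at 0h, where no array was well above background, then 1.25, 1.28 and 1.34 at 8h, and −2.09, −1.66 and −2.25 at 8h2h. All 8h arrays were above all 8h2h arrays, and all 8h2h arrays above all 0h arrays of the same line, with no overlap. By mean the order was Rescue 8h, KO 8h, Rescue 8h2h, KO 8h2h, Rescue 0h and then KO 0h, and no neighbours in this order overlapped.

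In Rescue, Cyp26a1 rose from 0h to 8h by 5.78 ± 0.31 on the log2 scale (SE, adjusted p = 1.05e-08), which is 54.9-fold, and within slides a, b and c the difference was 5.85, 6.02 and 5.46. In KO it rose at least 49.2-fold (adjusted p = 1.17e-08). An "at least" fold sets the mean of the bright group against a mean floor. The floor on each array is the higher of the dim probe's own signal and the lowest signal well above background. Such a fold bounds group means and not single slides, and it holds for the deposited processed signal. With normexp background correction, an alternative that raises dim signals by an offset, the rise was 4.57 in Rescue and 3.72 in KO on the log2 scale, both still called. From 8h to 8h2h, Cyp26a1 fell by 3.41 ± 0.31 in Rescue (adjusted p = 2.04e-05, 10.6-fold) and by 3.29 ± 0.31 in KO (adjusted p = 1.48e-05, 9.78-fold). It did not return to the 0h level in the time given: 8h2h was above 0h by 2.37 ± 0.31 in Rescue (adjusted p = 8.39e-05) and at least 5.03-fold in KO (adjusted p = 3.46e-05). With normexp these differences were 1.42 and 0.92 on the log2 scale, still called (adjusted p = 1.99e-05 and 0.00147). Within slides a, b and c the KO difference of 8h2h from 0h was 3.41, 2.06 and 2.48 on the deposited signal.

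KO arrays had less Cyp26a1 than Rescue arrays at each titled time. The difference, KO minus Rescue, was −1.56 ± 0.31 at 8h (adjusted p = 0.00271, 2.94-fold lower) and −1.44 ± 0.31 at 8h2h (adjusted p = 0.00455). At 0h KO was at least 2.64-fold lower by group mean (adjusted p = 0.00162), and with normexp the difference was −0.64 on the log2 scale (adjusted p = 0.0189). Within slides a, b and c the 0h difference was −2.68, −0.65 and −1.80 on the deposited signal. The size of the response itself was not found to differ between the lines: the fall from 8h to 8h2h differed by 0.12 ± 0.44 (adjusted p = 0.996), and the difference between the rises is not a measured fold, since KO 0h was below background. Without scaling the arrays, the difference at 8h2h was −1.24 with an adjusted p of 0.0526.

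**Figure D1:**
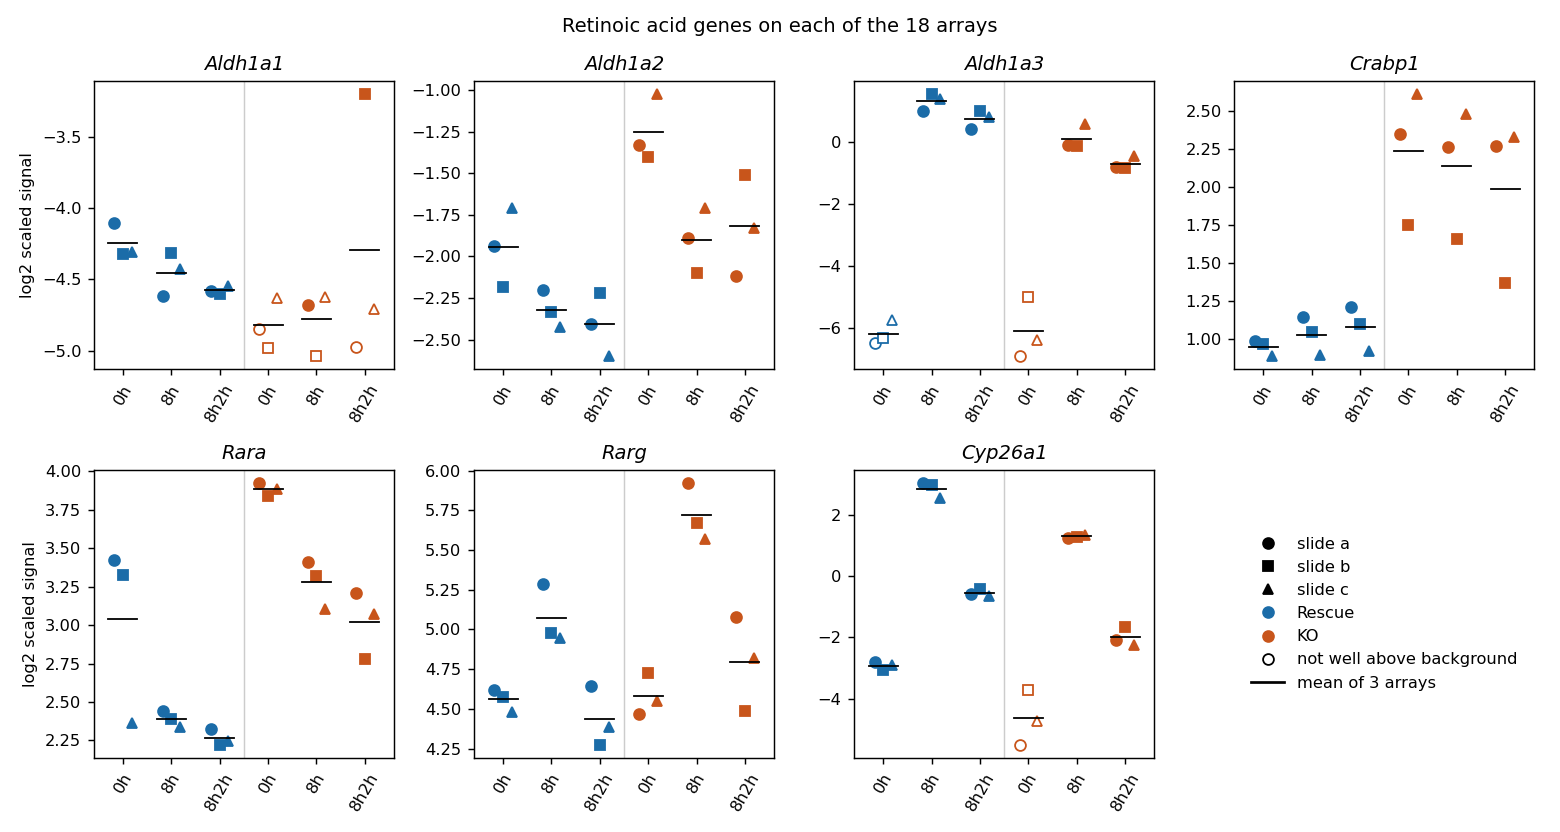
Log2 scaled signal (vertical axis, its own range in each panel) of the 7 tested genes on all 18 arrays, by line and titled time, with open symbols where the probe was not well above background and bars at the mean of 3 arrays. Cyp26a1 and Aldh1a3 climb from 0h to 8h in both lines, Cyp26a1 and Rarg come down again at 8h2h, and Crabp1 and Rara are higher in KO.

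Aldh1a3, which makes retinoic acid, rose from below background at 8h in both lines, and its step from 8h to 8h2h was not called. At 0h it was below background on all 6 arrays, with −6.48, −6.30 and −5.73 in Rescue and −6.88, −4.98 and −6.38 in KO. At 8h it was 0.97, 1.53 and 1.38 in Rescue and −0.11, −0.14 and 0.55 in KO, and at 8h2h 0.41, 0.97 and 0.79 in Rescue and −0.82, −0.86 and −0.46 in KO. Every treated array was thus far above every untreated one, and at 8h and at 8h2h every Rescue array was above every KO array.

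The Aldh1a3 probe passed the brightness filter only through the treated groups, so the gene was tested only because it was bright there. From 0h to 8h Aldh1a3 rose at least 119-fold in Rescue (adjusted p = 6.42e-09) and at least 23.2-fold in KO (adjusted p = 4.88e-08). It was still at least 80.2-fold above 0h at 8h2h in Rescue and at least 13.2-fold in KO. These bounds too hold for the deposited signal: with normexp the difference from 0h was 4.13 in Rescue and 3.06 in KO at 8h, and 3.62 and 2.32 at 8h2h, on the log2 scale, all of them called. The step from 8h to 8h2h was −0.57 ± 0.38 in Rescue (adjusted p = 0.792), where the groups overlap, and −0.81 ± 0.38 in KO (adjusted p = 0.246), where they do not. The difference was below 0 on all 3 slides in both lines. KO minus Rescue was −1.19 ± 0.38 at 8h (adjusted p = 0.038) and −1.44 ± 0.38 at 8h2h (adjusted p = 0.015). The 8h call was lost in 8 of 29 alternative settings, among them with unscaled arrays and with quantile normalisation, and the 8h2h call in 1, when Rescue 8h2h array b was left out.

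Aldh1a2, the enzyme with the main role in retinoic acid synthesis in the early embryo, went the other way by a small amount. Its signal in Rescue was −1.94, −2.19 and −1.71 at 0h, −2.20, −2.33 and −2.43 at 8h and −2.41, −2.22 and −2.60 at 8h2h. In KO it was −1.33, −1.40 and −1.02 at 0h, −1.89, −2.10 and −1.71 at 8h and −2.12, −1.51 and −1.83 at 8h2h. KO 0h arrays were the highest of all and overlapped no other group.

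From 0h to 8h Aldh1a2 fell in KO by 0.65 ± 0.17 on the log2 scale (adjusted p = 0.0137, 1.56-fold). In Rescue the difference was −0.38 ± 0.17 (adjusted p = 0.126), and the 2 responses were not found to differ (−0.27 ± 0.25, adjusted p = 0.795). From 8h to 8h2h it moved by −0.09 ± 0.17 in Rescue and 0.08 ± 0.17 in KO, with no call. KO was above Rescue by 0.69 ± 0.17 at 0h (adjusted p = 0.0131) and by 0.59 ± 0.17 at 8h2h (adjusted p = 0.0264), and by 0.42 ± 0.17 at 8h, which was not called (adjusted p = 0.105). The difference at 0h was not called unscaled (0.83, adjusted p = 0.0661) or quantile normalised (0.67, adjusted p = 0.103). That at 8h2h was not called unscaled (0.79, adjusted p = 0.0722), was 0.0038 when quantile normalised (adjusted p = 0.993) and 0.32 with normexp (adjusted p = 0.114). The fall in KO at 8h was not called unscaled (−0.33, adjusted p = 0.461) or quantile normalised (−0.62, adjusted p = 0.114).

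Aldh1a1, the remaining retinaldehyde dehydrogenase, was near the limit of detection. Its probe was above background on all 9 Rescue arrays, at −4.62 to −4.10, but on 2 of the 9 KO arrays, KO 8h array a at −4.68 and the array with high background, KO 8h2h array b, at −3.20. The other 7 KO arrays lay between −5.04 and −4.62. No comparison of Aldh1a1 was called. At 0h no KO array was above background, so that only a bound can be given: KO was at least 1.11-fold lower than Rescue, with no overlap between groups (adjusted p = 0.249). Without KO 8h2h array b, which enters the estimate of the spread, the adjusted p of the same unread difference was 0.00613.

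Crabp1 binds retinoic acid in the cytoplasm. It showed a difference between the lines and no called change with treatment. Its signal in Rescue was 0.99, 0.97 and 0.89 at 0h, 1.14, 1.05 and 0.90 at 8h, and 1.22, 1.10 and 0.92 at 8h2h. In KO it was 2.35, 1.75 and 2.61 at 0h, 2.26, 1.66 and 2.48 at 8h, and 2.27, 1.37 and 2.33 at 8h2h. Every KO array was above every Rescue array, and slide b was the lowest KO array at each titled time.

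The Crabp1 difference, KO minus Rescue, was 1.29 ± 0.27 at 0h (adjusted p = 0.0038, 2.44-fold), 1.11 ± 0.27 at 8h (adjusted p = 0.00848) and 0.91 ± 0.27 at 8h2h (adjusted p = 0.0251). Within slide b the differences were 0.78, 0.62 and 0.27. A second probe of Crabp1 gave 1.40, 1.20 and 1.21 at the same 3 times, all called when each probe was tested on its own. Between titled times within a line, the change of Crabp1 with its brighter probe ranged from −0.25 to 0.13, with adjusted p from 0.537 to 1. The second probe gave 0.32 in Rescue from 0h to 8h and 0.36 from 0h to 8h2h, neither of them called (adjusted p = 0.344 and 0.311). The 8h2h call was lost in 7 of 30 alternatives, and the calls at 0h and 8h in none.

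Among the receptors, Rarg was above background on every array, rose at 8h and fell at 8h2h in both lines. In Rescue its signal was 4.62, 4.58 and 4.48 at 0h, 5.29, 4.98 and 4.95 at 8h, and 4.64, 4.28 and 4.38 at 8h2h. In KO it was 4.46, 4.73 and 4.55 at 0h, 5.92, 5.67 and 5.57 at 8h, and 5.08, 4.49 and 4.82 at 8h2h. In each line the 8h arrays were above all others, and the 8h2h and 0h arrays overlapped.

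Rarg rose from 0h to 8h by 1.14 ± 0.16 in KO (adjusted p = 8.42e-05, 2.21-fold) and by 0.51 ± 0.16 in Rescue (adjusted p = 0.0238, 1.43-fold). The difference between these responses was 0.63 ± 0.22 and was not called over all genes (adjusted p = 0.211), although it was above 0 on all 3 slides, at 0.79, 0.54 and 0.56. From 8h to 8h2h Rarg fell by 0.93 ± 0.16 in KO (adjusted p = 0.00228) and by 0.64 ± 0.16 in Rescue (adjusted p = 0.0426), and at 8h2h it stood 0.21 ± 0.16 from 0h in KO and −0.13 ± 0.16 in Rescue, neither of them called. The call of the fall in Rescue was lost in 17 of 30 alternatives, 12 of which left out 1 array, and the rise in Rescue lost its call in 5. KO exceeded Rescue at 8h by 0.65 ± 0.16 (adjusted p = 0.00852). At 0h the lines differed by 0.02 ± 0.16 and at 8h2h by 0.36 ± 0.16, with adjusted p = 0.952 and 0.124. Without KO 8h2h array b the latter had an adjusted p of 0.0222.

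Rara was higher in KO than in Rescue and lower after treatment. Its signal in Rescue was 3.43, 3.33 and 2.36 at 0h, 2.44, 2.39 and 2.34 at 8h, and 2.33, 2.22 and 2.25 at 8h2h. In KO it was 3.93, 3.84 and 3.89 at 0h, 3.41, 3.32 and 3.11 at 8h, and 3.21, 2.78 and 3.07 at 8h2h. Array c of Rescue 0h lay with the treated arrays, about 1 unit below arrays a and b of its group, so that Rescue 0h overlaps Rescue 8h.

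KO minus Rescue for Rara was 0.85 ± 0.21 at 0h (adjusted p = 0.0122), 0.89 ± 0.21 at 8h (adjusted p = 0.00773) and 0.75 ± 0.21 at 8h2h (adjusted p = 0.02), with no overlap at any of the 3. From 0h to 8h2h Rara fell by 0.87 ± 0.21 in KO (adjusted p = 0.00903) and by 0.77 ± 0.21 in Rescue (adjusted p = 0.0173). The step from 0h to 8h was −0.61 ± 0.21 in KO (adjusted p = 0.0493) and −0.65 ± 0.21 in Rescue (adjusted p = 0.0323). On slide c the Rescue step was −0.02 with this probe. The second Rara probe read 1.28 at Rescue 0h and 0.13 at Rescue 8h on slide c, and its Rescue 0h array c was the highest of the 3 (0.86 on a and 0.79 on b), so the low array c is seen with 1 probe of the 2. These 2 calls were the least firm, lost in 18 and in 9 of 30 alternatives. This second probe, dimmer on every array, gave −0.43 in KO (adjusted p = 0.0932, not called) and −0.88 in Rescue (adjusted p = 0.00167), and for KO minus Rescue at 0h 0.46 (adjusted p = 0.0858, not called).

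Rarb, the receptor that retinoic acid itself induces in many cells, could not be measured. One of its 3 probes was above background on no array, and each of the other 2 on a single array, a different one for each. Those were KO 8h2h array b, which has the high background, with a processed intensity of 97.1, and Rescue 0h array a, with 47.2. This sets a bound on these probes and does not show that the transcript was absent.

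**Figure D2:**
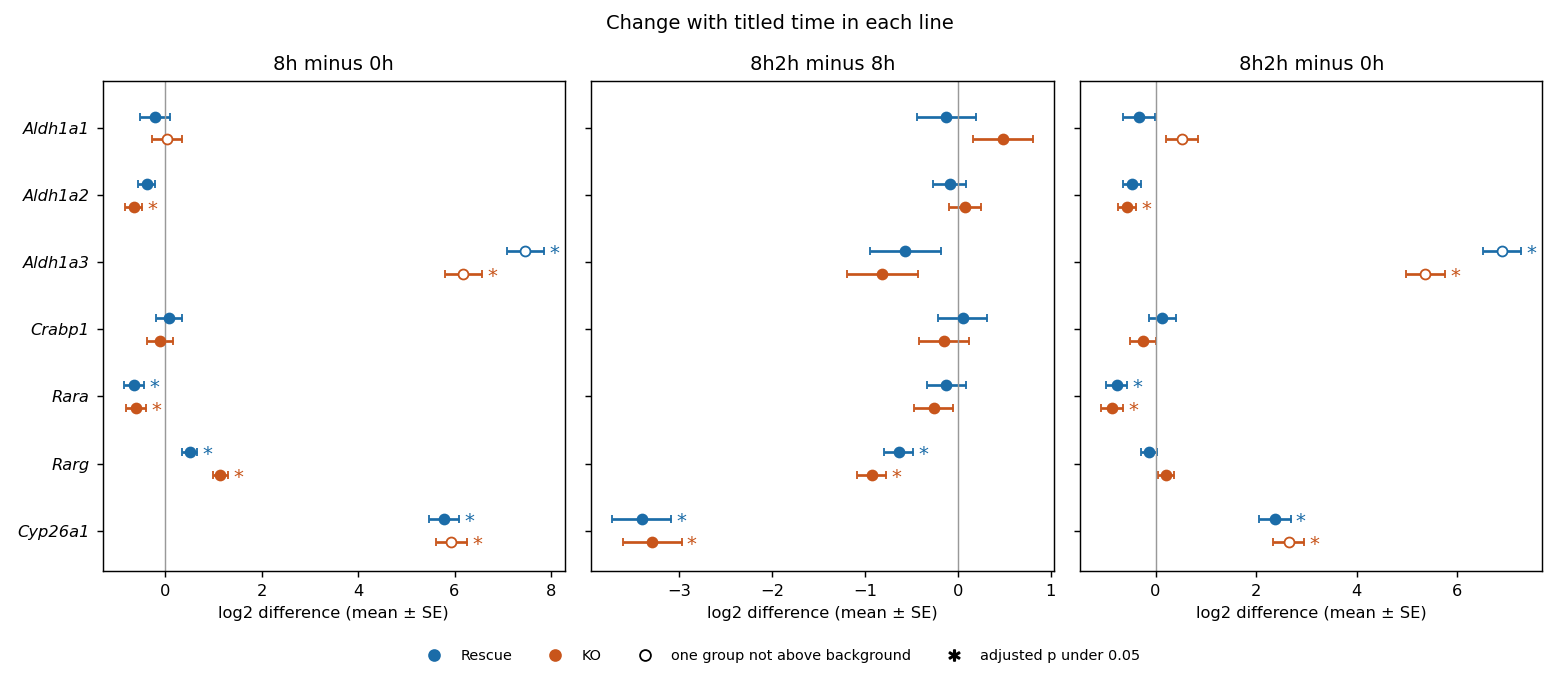
Log2 difference between titled times (mean ± SE, horizontal axes) for the 7 tested genes in Rescue and KO, with a star at an adjusted p under 0.05 and open symbols where one group was below background. Aldh1a3 and Cyp26a1 rise in both lines at 8h, while from 8h to 8h2h the starred genes are Cyp26a1 and Rarg.

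Counted together, and beside the higher signals of Thy1 and of mesoderm markers such as Kdr at 8h given above, 3 of the 7 tested members rose from 0h to 8h in Rescue (Aldh1a3, Cyp26a1 and Rarg) and 1 fell (Rara), beside 13% of all genes tested called higher and 16.1% called lower. In KO 3 rose, the same genes, and 2 fell (Aldh1a2 and Rara), beside 11.9% and 13.5%. From 8h to 8h2h none was higher and Cyp26a1 and Rarg were lower in each line, beside 1.43% of genes higher and 1.45% lower in Rescue and 4.14% and 3.2% in KO. From 0h to 8h2h 2 rose and 1 fell in Rescue (background 10.5% and 10.8%), and 2 rose and 2 fell in KO (11% and 11.4%). These comparisons share arrays within a line, so the counts are not independent. Aldh1a3 was among the tested genes only through its treated groups, so its rise from 0h and its place in these counts are linked.

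Between the lines, which also differ in the trophoblast and primitive endoderm markers given above, Crabp1, Rara and Aldh1a2 were higher in KO at 0h and Cyp26a1 lower, beside 7.09% of genes called higher and 11.3% lower. At 8h Crabp1, Rara and Rarg were higher and Cyp26a1 and Aldh1a3 lower (background 9.16% and 12.4%). At 8h2h Crabp1, Rara and Aldh1a2 were higher and Cyp26a1 and Aldh1a3 lower (9.55% and 12.3%). No member was called for a difference between the lines in the change from 0h to 8h or from 8h to 8h2h, and 2.28% and 0.0562% of all genes were. Before adjustment, 2 members passed 0.05 in limma's fit for the first of these, Rarg (0.0131) and Aldh1a3 (0.0326, with both 0h groups below background), and 0 for the second. Every alternative run also gave 0 calls.

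The scaling bears on these counts. Unscaled, the median of all genes shifted by 0.29 from 0h to 8h in Rescue and 0.28 in KO, and 80.7% and 79.2% of calls were then in the higher direction, against 44.7% and 46.9% scaled. The same share was 74.4% against 56.4% for KO 8h2h vs 8h (median shift 0.16), 90.8% against 49.3% for Rescue 8h2h vs 0h (0.36), 95.6% against 49.2% for KO 8h2h vs 0h (0.47), and 64.2% against 43.8% for KO minus Rescue at 8h2h (0.21). Quantile normalisation gave 33.5% for this last comparison, with a median shift of −0.12, and normexp background correction gave 38.8% against 49.6% for Rescue 8h2h vs 8h. No member that was called changed its direction under any of these.

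**Figure D3:**
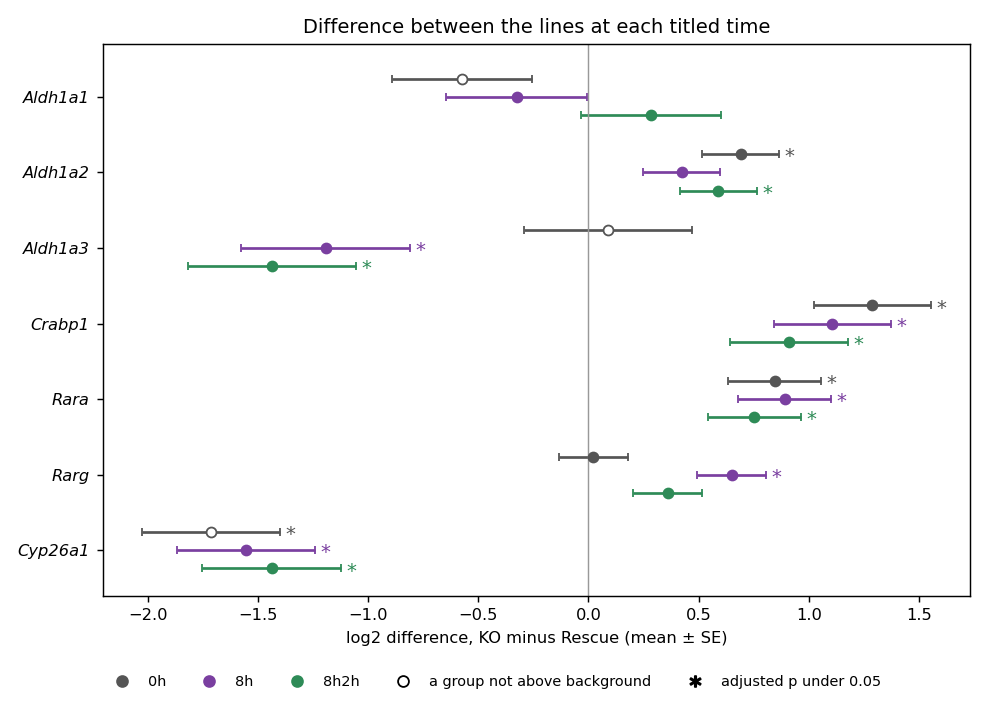
Log2 difference, KO minus Rescue (mean ± SE, horizontal axis), for the 7 tested genes at each titled time, with a star at an adjusted p under 0.05 and open symbols where a group was below background. Crabp1 and Rara lie to the right of 0 at all 3 times, Cyp26a1 to the left at all 3, and Rarg away from 0 at 8h.

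The genes that supply retinaldehyde moved in both directions. Of 23 genes of retinol uptake, storage and oxidation, 19 were tested, and from 0h to 8h 5 rose and 6 fell in Rescue (13% and 16.1% of all genes) and 3 rose and 3 fell in KO (11.9% and 13.5%), with a median change of −0.22 and −0.11 against −0.05 and −0.04 for all genes. Rdh10, the retinol dehydrogenase that embryos depend on, fell by 0.98 ± 0.19 in Rescue (adjusted p = 0.00112) and by 0.72 ± 0.19 in KO (adjusted p = 0.0104). It was lower in KO than in Rescue at each time, with −1.54 ± 0.19 at 0h (adjusted p = 6.48e-05) and −1.38 ± 0.19 at 8h2h (adjusted p = 0.00013).

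Dhrs3, a reductase that turns retinaldehyde back into retinol, fell at 8h and rose at 8h2h in both lines. From 0h to 8h Dhrs3 fell by 3.19 ± 0.26 in Rescue (adjusted p = 5.45e-07), and in KO it fell by 2.53 ± 0.26 (adjusted p = 5.48e-06). From 8h to 8h2h it rose by 1.76 ± 0.26 in Rescue and 2.34 ± 0.26 in KO (adjusted p = 0.00132 and 5.83e-05). It was the only gene of this list called between 8h and 8h2h in either line. Rpe65, a retinoid isomerase of the eye, was below background at 0h in both lines and rose at least 10.6-fold in Rescue and at least 1.57-fold in KO. Rpe65 too passed the brightness filter only through treated groups. Between the lines, 1 gene of the list was higher in KO and 4 lower at 0h (7.09% and 11.3% of all genes). The counts were 2 and 6 at 8h (9.16% and 12.4%), and 2 and 6 at 8h2h (9.55% and 12.3%). Rbp4, the carrier of retinol in blood, was the higher one at 0h (1.27 ± 0.24, adjusted p = 0.00226) and Rbp7 was lower (−1.60 ± 0.25, adjusted p = 0.000571).

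Of 5 genes for removal of retinoic acid by other routes or for other carriers, 3 were tested. Fabp5, which carries retinoic acid to another receptor, Ppard, was lower in KO than in Rescue by −0.77 ± 0.22 at 0h, −1.10 ± 0.22 at 8h and −1.13 ± 0.22 at 8h2h (adjusted p = 0.024, 0.00246 and 0.00205). Cyp26b1, a paralogue of Cyp26a1, was above background on all 9 Rescue arrays and in KO on array b of 8h2h only, and none of its comparisons was called. From 0h to 8h in Rescue its change was −0.79 ± 0.72, where Cyp26a1 rose.

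Of 8 listed partners of the receptors 7 were tested, and from 0h to 8h 1 rose and 2 fell in Rescue (13% and 16.1% of all genes) and 2 rose and 2 fell in KO (11.9% and 13.5% of all genes). Rxra fell by 0.60 ± 0.14 in Rescue and by 0.78 ± 0.14 in KO (adjusted p = 0.00532 and 0.000933), and Rxrb by 0.42 ± 0.11 and 0.43 ± 0.11 (adjusted p = 0.00887 and 0.00893). Rxrg rose by 5.18 ± 0.27 in Rescue (adjusted p = 7.87e-09), and in KO, where it was below background at 0h, at least 25.4-fold (adjusted p = 1.2e-08). It stayed up at 8h2h, at 1.63 in Rescue and −0.01 in KO against 1.83 and 0.23 at 8h. KO was lower in Rxrg by −1.61 ± 0.27 at 8h (adjusted p = 0.000745). None of the 7 was called between 8h and 8h2h.

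Of 15 genes listed as transcriptional corepressors and coactivators, 14 were tested. From 0h to 8h 4 rose and 5 fell in Rescue (13% and 16.1% of all genes). In KO 2 rose and 3 fell, near the 11.9% and 13.5% of all genes. Cited1, a transcriptional coactivator, rose by 2.57 ± 0.22 in Rescue (adjusted p = 7.23e-07), and its response differed between the lines by −2.20 ± 0.30 (adjusted p = 0.00171), the one gene of this list called for that difference. At 8h it was lower in KO by −3.45 ± 0.22 (adjusted p = 5.64e-07). Zfp423, a zinc finger partner of RAR and RXR, rose by 1.38 ± 0.19 in Rescue and by 2.28 ± 0.19 in KO (adjusted p = 9.81e-05 and 9.89e-07).

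**Figure D4:**
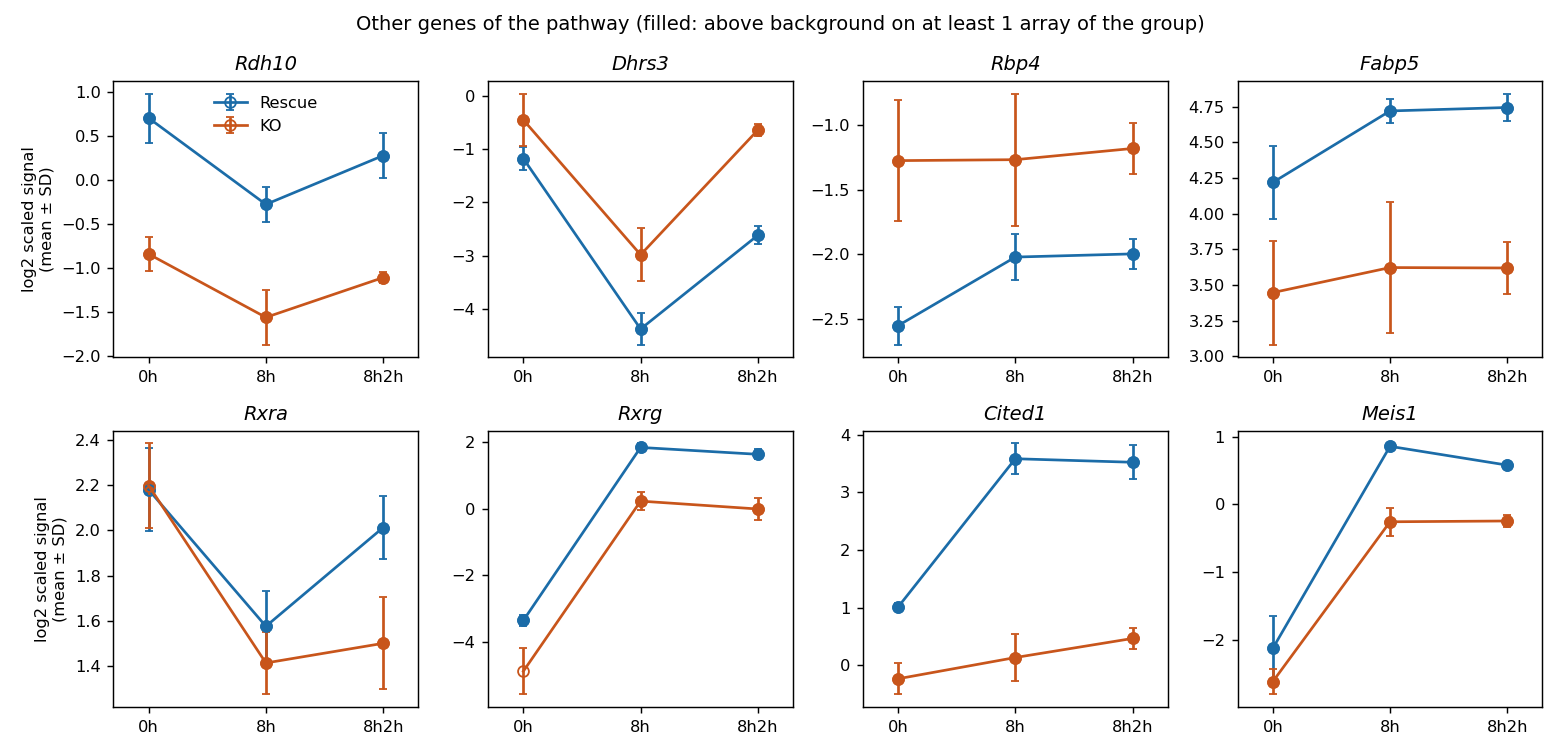
Log2 scaled signal (mean ± SD of 3 arrays, vertical axis) of 8 further genes of the lists at each titled time in Rescue and KO, with an open symbol where no array of the group was above background. Dhrs3 falls at 8h and returns in part at 8h2h, Rxrg and Meis1 rise and stay up, and Cited1 rises in Rescue.

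Genes known to respond to retinoic acid in embryonic stem cells moved in both directions. Of 30 listed, 24 were tested, and 6 rose and 7 fell from 0h to 8h in Rescue (13% and 16.1% of all genes), with a median of −0.30, while 7 rose and 5 fell in KO (11.9% and 13.5%), with a median of −0.14. This list overlaps the lists above, for example in Dhrs3, Stra6, Nrip1, Nr2f1, Nr2f2 and Cyp26b1. Meis1, a homeobox factor, rose by 2.98 ± 0.18 in Rescue (adjusted p = 3.87e-08) and by 2.36 ± 0.18 in KO (adjusted p = 4.45e-07). Meis2, its paralogue, fell by 1.64 ± 0.24 in Rescue (adjusted p = 0.000118), and its response differed between the lines by 1.63 ± 0.34 (adjusted p = 0.0196). At 0h 1 gene of the list was higher in KO and 9 were lower (7.09% and 11.3% of all genes). The counts were 4 and 11 at 8h (9.16% and 12.4%), and 3 and 8 at 8h2h (9.55% and 12.3%). Zfp703 was lower in KO by −1.78 ± 0.19 at 0h (adjusted p = 2.3e-05), Tgm2 by −1.89 ± 0.49 at 8h (adjusted p = 0.0136), and Cdx1 was higher at 8h by 2.00 ± 0.49 (adjusted p = 0.00998). Hoxa2, Hoxa4, Hoxa5, Hoxb1, Hoxb2 and Hoxb5 had probes but did not pass the brightness filter.

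Of 16 other aldehyde dehydrogenases, 14 were tested, and from 0h to 8h 1 rose and 3 fell in Rescue (13% and 16.1% of all genes) and 3 fell in KO with none rising (13.5% and 11.9% of all genes), which is close to these shares. Aldh1b1, a mitochondrial relative of the Aldh1a enzymes, fell by 2.70 ± 0.26 in Rescue (adjusted p = 3.24e-06) and by 2.23 ± 0.26 in KO (adjusted p = 2.23e-05). From 8h to 8h2h it rose by 1.82 ± 0.26 in KO (adjusted p = 0.00072), the one gene of this list called there. KO was higher for 5 of the 14 at 8h (9.16% of all genes) and 5 at 8h2h (9.55%). It was lower for none at either time (12.4% and 12.3%). At 0h 1 was higher and none lower (7.09% and 11.3%), and this was Aldh3a1 at 1.24 ± 0.25 (adjusted p = 0.00315).

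The genes whose signal followed each member most closely over the 18 arrays are given as a description, since arrays of 1 group share a treatment and arrays of 1 slide a hybridisation. For Cyp26a1 they were Ccl20 (Pearson r = 0.979), Dusp4 (0.978), Plaur (0.971), Wdr47 (0.968) and Hs3st3b1 (0.967), of which Dusp4 encodes a phosphatase of ERK. For Aldh1a3 they were C4bp-ps1 (0.989), Akr1b8 (0.988), Ptprc (0.988), Col6a5 (0.987) and Lgals7 (0.986). Rarg was followed by Trmt10c (0.921), Bmp4 (0.918), F2rl1 (0.915), Mtdh (0.912) and Msantd2 (0.905), and Rara by Zbtb24 (0.983), Rad54l (0.969), Apip (0.966), Pola1 (0.960) and Mllt10 (0.956). Crabp1 had Smim14 (0.969), Crtac1 (0.964), Asgr2 (0.962), Platr26 (0.960) and Lix1l (0.952), and Aldh1a2 had Ren2 (0.943), Cfp (0.935), Klk1 (0.934), Myh13 (0.933) and Mfap4 (0.930). No gene appears in more than 1 of these lists. Between the members themselves, Cyp26a1 correlated at 0.85 with Aldh1a3, 0.61 with Rarg, −0.61 with Rara and −0.65 with Aldh1a2 over the same arrays.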

How the data were processed

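RNA from 18 samples was read on 18 one-colour Agilent arrays, scanned and extracted with Agilent Feature Extraction 12.0.1.1, per the file headers. The deposited processed-signal intensity of each spot (background-subtracted by that software) was used with its deposited outlier, saturation and well-above-background flags. The authors' value table held the same intensity for all 62976 spots. No count or depth applies to arrays, and 3 arrays per group limit the precision.

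Spots of a probe were averaged without outlier spots, 107 probes with such spots throughout were left out, log2 was taken, and the log2 of the 75th percentile of all non-control spots (intensity 297 to 765) was subtracted. Probes were named through RefSeq transcripts (32994 of 56605 probes, 22911 genes). Kept probes had to be marked well above background in a whole group of 3 arrays, 1 such group being enough, and the brightest kept probe stood for a gene (5698 of 16022 genes had several). Group means over all 18 arrays were fitted with limma 3.58.1 (R 4.3.3), 11 comparisons, Benjamini-Hochberg, two-sided. No spot was saturated. The fit was tested on simulated arrays for Rescue 8h vs 0h, with 50 changed genes of each size. It recovered 4% of rises of 0.5 on the log2 scale, 58% of rises of 1 and 88% of rises of 2. Of falls of 1 it recovered 54%. Small changes can thus be missed, and a change that was not called is not shown to be absent.

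Named were all 9 members, up to 3 called genes with the largest changes per pathway list and comparison, and the 5 genes most correlated with each called member. Some genes of the lists are counted but not reported here. The members, lists and tests were chosen with earlier results of these data known, and the percentile over all spots was settled after seeing the files. Alternatives were other scalings, background corrections, filters, probes, priors, the slide as a block, fewer arrays and a 2-fold minimum.

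Arrays of 1 slide deviated together (correlation over 0.1) in 28 of 45 pairs of arrays that share a slide. The letters were not treated as pairs in the main fit, so variation shared within a slide stays in its spread. With the slide as a block, 5291 genes were called from 0h to 8h in Rescue, against 4667 in the main fit. Replicate arrays correlated at 0.943 to 0.996 and none was a copy of another.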

Additional observations from a re-analysis of the deposited data

How the results depend on the processing

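Of the 34 calls of members, 15 held under every alternative in which the gene was tested. For Cyp26a1 and Aldh1a3 these were 29 alternatives, and for the other called members 30. The 15 include the rises of Cyp26a1 and Aldh1a3 in both lines and the falls of Cyp26a1 from 8h to 8h2h. They also include the rise of Rarg in KO at 8h and the Crabp1 differences at 0h and 8h. The other 19 were lost under at least 1, and 3 further calls appeared under some. With the slide as a replicate block the number of members called was 4 in Rescue and 5 in KO from 0h to 8h, and no member call changed in any comparison. The causes of the following changes were not tested.

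Numbers of members called that moved by 2 or more, or from 2 to 1, were as follows. Where 3 or more members were called, the loss of 1 call is not listed. Such losses included Rara in Rescue 8h vs 0h with no filter and with only the arrays compared. They also included Aldh1a2 in KO 8h vs 0h with quantile normalisation, Rara in Rescue 8h2h vs 0h unscaled, and Aldh1a2 in KO vs Rescue at 8h2h with normexp. Rescue 8h vs 0h (4 called) gave 2 unscaled, with probes read on all 18 arrays, with a 2-fold minimum and with the percentile over probes (added after seeing the data). KO 8h vs 0h (5) gave 3 unscaled, with probes read on all arrays and with the 2-fold minimum. Rescue 8h2h vs 8h (2) gave 1 under those 4 settings and also with normexp, no filter and each probe on its own. KO 8h2h vs 8h (2) gave 1 unscaled, with probes read on all arrays, with only the arrays compared and with the 2-fold minimum. Rescue 8h2h vs 0h (3) gave 1 with probes read on all arrays, and KO 8h2h vs 0h (4) gave 2 with these, unscaled and with the 2-fold minimum. KO vs Rescue at 0h (4) gave 2 unscaled, with only the arrays compared and with the 2-fold minimum. KO vs Rescue at 8h (5) gave 2 unscaled and 3 with probes read on all arrays and with the 2-fold minimum. KO vs Rescue at 8h2h (5) gave 1 unscaled, 2 with the 2-fold minimum, and 3 with probes read on all arrays, only the arrays compared and the percentile over probes. Probes read on all arrays drop Cyp26a1, Aldh1a3 and Aldh1a1 by construction.

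Leaving out 1 array at a time gave 2 to 4 members in Rescue 8h vs 0h, 3 to 5 in KO 8h vs 0h, 1 to 2 in Rescue 8h2h vs 8h, 2 in KO 8h2h vs 8h, 2 to 4 in Rescue 8h2h vs 0h and 3 to 4 in KO 8h2h vs 0h. For KO vs Rescue it gave 3 to 5 at 0h, 4 to 5 at 8h and 2 to 5 at 8h2h, and for both differences between the lines 0. Among the other genes named by the rule and reported, a reversal was seen for Aldh4a1 in KO 8h2h vs 0h (0.039 unscaled). Signal over background limits Rarb in every group, Aldh1a3 at 0h in both lines and Cyp26a1 at 0h in KO. It limits Aldh1a1 most in KO, and this gene was near the limit of detection in Rescue too.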
